A study of Mus musculus with 12 samples.

Results

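Thymocytes carrying the HY T cell receptor and given a low dose of its peptide were compared with thymocytes carrying the OT1 receptor, both kept for 6 days in RTOC, the reaggregate thymic organ culture in which thymocytes mature among thymic stromal cells. The comparison used 8 of the 12 arrays in the study, 4 of HY_low and 4 of OT1. They were chosen by their labels and matched by the number, 1 to 4, in their titles. HY_low cells received Smcy peptide at 1e-07 M, whereas no peptide is named for OT1. The remaining 4 arrays, HY_high, hold the HY receptor with Smcy at 1e-05 M. The labels give neither the genetic background of the stroma, the sex of the cells nor a cell sort. Whether a group's 4 arrays hold independent cultures is not stated either, so p-values here reflect variation among arrays, which may be technical. Receptor and peptide differ together between the groups and cannot be told apart. Levels of sex-linked genes also set OT1 arrays 2 and 3, and less strongly OT1 array 1, apart from the HY_low arrays, as given below.

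HY and OT1 are transgenic receptors of the CD8 lineage that read peptides on MHC class I molecules. HY reads a peptide of the male protein Smcy, also called Kdm5d, and OT1 reads a peptide of ovalbumin. In the thymus, the strength with which a receptor binds peptide and MHC sets whether a CD4+CD8+ precursor dies, matures as a conventional CD8+ T cell or takes an innate-like fate. T cells also read interferon through STAT and IRF factors, which bind short promoter motifs and switch on antiviral genes.

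Expression was measured on Affymetrix mouse arrays as intensities on a linear scale. Precision is limited by having 4 arrays a group. Medians of the 8 arrays were 3.33 to 3.97. For the Gapdh control, the 3' end of the transcript read higher than its 5' end in every array. On the log2 scale this excess ran from 2.95 (array 4) to 6.26 (array 2) in OT1. In HY_low it ran from 3.27 (array 4) to 5.78 (array 2). For the actin control the excess was lowest in HY_low array 2 (2.02) and highest in OT1 array 3 (3.39). The part of these excesses in any of the differences was not tested. The share of values at 1, the lowest value of the table, was 17.4% ± 6.02 (SD, n = 4) in OT1 and 14.6% ± 9.02 in HY_low. It was 19.0% in OT1 array 2 and 5.17% in HY_low array 2. Of 8695 probe sets tested, 4387 had a geometric mean under 8 in both groups and 1599 reached 32 in either. Defining genes of CD8+ T cells were present in both groups. Cd8b1, the beta chain of the CD8 coreceptor, had a geometric mean of 693 in OT1 and 644 in HY_low, while Cd4 stood at 6.18 and 4.68.

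Segments of the T cell receptor made up 4 of the 8 called probe sets. With limma and the array number as a block, 8 of 8695 probe sets passed an adjusted p of 0.05, and 7 of them were higher and 1 lower in HY_low. That is 0.0805% of the probe sets for the higher and 0.0115% for the lower direction. The 8 comprised 2 probe sets for Trav9d-3, single probe sets for Trbv13-2, Trgv1, H2-K1 and Slc9a3r1, and 2 probe sets with no single gene name in the platform's annotation. Without the block only 2 remained called, Trav9d-3 97944_f_at and the unnamed 99389_at. Over all 8695, an unadjusted p under 0.05 was reached by 411 higher and 317 lower probe sets. Groups without overlap were found for 77 higher and 65 lower probe sets.

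**Figure D1:**
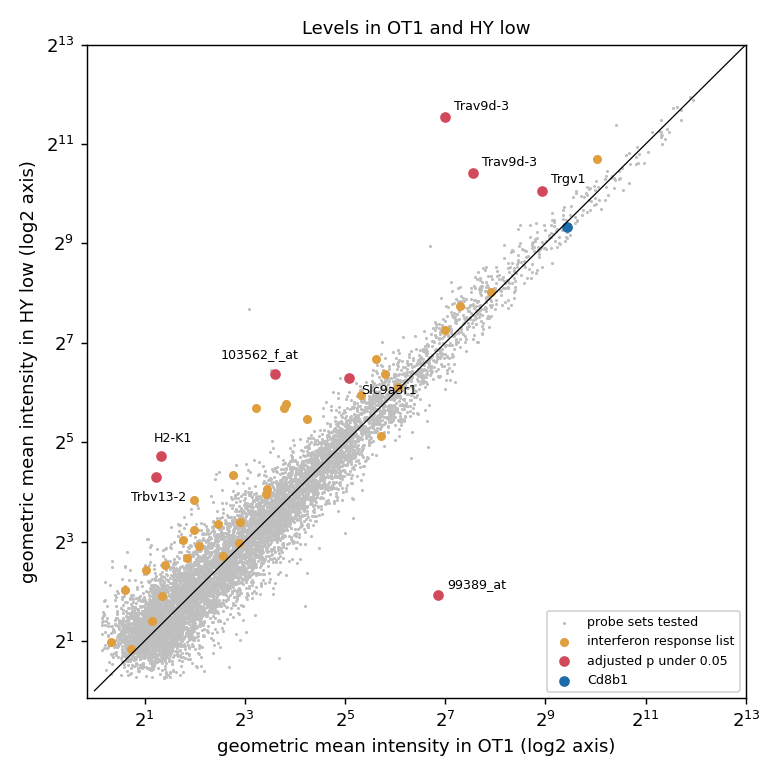
Geometric mean intensity of each tested probe set in OT1 (x axis) and HY low (y axis), both on log2 axes, with the line of equal levels. Trav9d-3 97944_f_at, at 127 and 2973, is the called probe set farthest above the line, 99389_at, at 116 and 3.79, lies farthest below it, and Cd8b1 lies near it.

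Trav9d-3 belongs to the variable family that builds the alpha chain of the HY receptor. On probe set 97944_f_at the OT1 arrays 1 to 4 read 243, 91.4, 142 and 82.5, and the HY_low arrays 4890.4, 3523, 2711 and 1673. The groups were far from overlapping, and each HY_low array was the higher of its number. Trav9d-3 rose 23.4-fold, by 4.55 ± 0.20 (log2, SE, n = 4) with an adjusted p of 6.39e-10. The second probe set, 97945_at, had 88.5, 134, 419.7 and 249.4 in OT1 and 1149, 2925, 1394 and 756 in HY_low. It rose by 2.87 ± 0.37 with an adjusted p of 0.0014 (0.0680 without the block), again without overlap. Probe set 93224_at was dim, with means of 2.25 and 1.83, and differed by -0.29 (adjusted p = 0.897). The suffix _f_at marks probe sets that several members of a gene family share, so family members cannot be separated there.

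Trbv13-2 belongs to the beta chain family of the HY receptor, and its probe sets disagreed in direction. Probe set 94202_at rose in HY_low by 3.07 ± 0.41 with an adjusted p of 0.0017. It read 2.45, 2.94, 2.11 and 1.96 in OT1 and 12.04, 11.9, 17.3 and 59.3 in HY_low, so the levels were low in both groups though they did not overlap. Setting a floor at 8 reduced the difference of Trbv13-2 to 1.29 with an adjusted p of 0.496. The brighter family probe set 101279_f_at went the other way, with 66.0, 26.9, 244 and 241 in OT1 and 34.0, 24.9, 25.55 and 37.2 in HY_low. That difference was -1.75 ± 0.40 and missed the threshold at an adjusted p of 0.150, but passed it with HY_low array 2 left out (-2.19, adjusted p = 0.0483). Under 22 of 24 alternatives 101279_f_at did not pass.

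No probe set named for Trav14 or Trbv12, the variable families of the OT1 receptor, was found in the annotation. Unnamed probe set 99389_at read 219, 36.95, 220.5 and 101 in OT1 and 4.13, 2.39, 5.34 and 3.92 in HY_low. It fell by 4.93 ± 0.39 with an adjusted p of 2.36e-06, and stood at a geometric mean of 2.61 in HY_high. The HY_low values of 99389_at lay near the array medians, so the size depends on how low values are treated. It was -3.86 with a floor at 8 (adjusted p = 0.0347) and -2.77 with a pseudocount of 16. It passed the threshold under all 24 alternatives tried, as did Trav9d-3 97944_f_at. The other unnamed probe set, 103562_f_at, read 30.2, 2.87, 16.4 and 15.2 in OT1 and 408, 16.1, 100.3 and 70.3 in HY_low. It rose by 2.77 ± 0.30 with an adjusted p of 0.00015. Its groups overlapped although every number showed the same direction, and array 2 was the lowest of its group in both.

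Trgv1, a variable segment of the gamma chain, was bright in both groups. Its arrays read 535, 479, 443 and 487 in OT1 and 1098, 1426, 1061 and 790.2 in HY_low, without overlap. Trgv1 rose 2.21-fold, by 1.14 ± 0.18 with an adjusted p of 0.0115, and its HY_high mean was 1333. The call of Trgv1 held under 10 of 24 alternatives, with a difference of 0.91 to 1.29 over all 24. It was lost when HY_low array 1, 2 or 3, OT1 array 2 or 3, or number 2 or 3 was left out (adjusted p from 0.0506 to 0.321), without the block, with 8 arrays, with no filter, with a floor at 8, without the variance trend and without both OT1 arrays 2 and 3. Slc9a3r1 encodes a scaffold that ties membrane proteins to ezrin and the actin cortex. It read 46.5, 22.3, 48.6 and 25.7 in OT1 and 107, 52.2, 109 and 61.0 in HY_low. Slc9a3r1 rose 2.32-fold, by 1.21 ± 0.21 with an adjusted p of 0.0323, and did so by nearly the same amount in each number. Leaving out HY_low array 1, 3 or 4, or OT1 array 2, 3 or 4, gave an adjusted p between 0.063 and 0.243 for Slc9a3r1. Without the block it was 1, and with any whole number left out it was 0.0727 to 0.347. The call of Slc9a3r1 held under 6 of 24 alternatives.

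**Figure D2:**
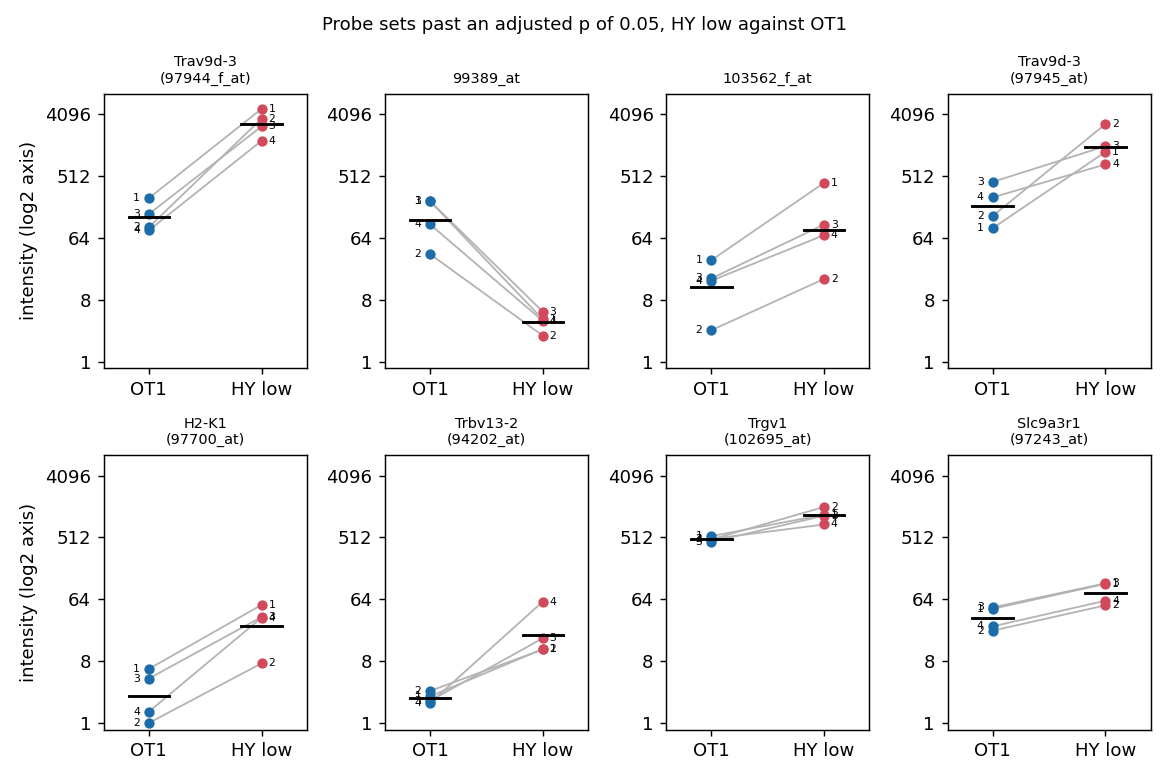
Intensity (log2 axis) of the 8 probe sets past an adjusted p of 0.05, one panel each, for the 4 OT1 and 4 HY low arrays; figures beside the points are array numbers, lines join arrays of the same number and black bars are geometric means. The lines run the same way in all 4 numbers of each panel, down for 99389_at and up for the other 7.

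Of the coreceptor and CD3 genes, none of 7 reached an unadjusted p under 0.05, and the median difference was -0.003. Cd8b1 read 219, 835, 1032 and 1219 in OT1 and 172, 698, 1042 and 1374 in HY_low, so arrays of the same number were alike while the numbers ranged widely. Its difference was -0.10 ± 0.54 (adjusted p = 0.974), where HY_high had a mean of 4.52. Cd8a, the alpha chain, was 340 and 339 with a difference of -0.0031 ± 0.31. Of the CD3 chains, Cd3g differed by 0.57 ± 0.31, Cd3e by 0.46 ± 0.25, Cd3d by 0.21 ± 0.23 and Cd247, the zeta chain, by -0.10 ± 0.35. Of the proximal signalling genes, none of 20 had an unadjusted p under 0.05 in either direction, and the kinase Zap70 stood at 564 and 705, a difference of 0.32 ± 0.19. The dimmer Zap70 probe sets 93661_at and 93663_r_at differed by -0.16 and -0.21.

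Interferon response genes had positive differences in 31 of 32 cases. Of 48 genes listed, 33 were on the array and 32 were tested, 13 of which reached 32 in either group and 11 of which stayed under 8 in both. None passed an adjusted p of 0.05 in limma, but 15 of 32 were higher and 0 lower at an unadjusted p under 0.05, where 4.86% of all 6362 genes were higher and 3.84% lower. Higher levels in all 4 numbers were found for 16 of the 32, against 9.95% of all genes. The list's median was 0.65, and that of all genes 0.01. It was 0.46 with a floor at 8 and 0.23 with a pseudocount of 16. In these bulk samples fewer cells of a type and less RNA per cell cannot be told apart.

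Promoter sequence is shown for 4 of these genes because a motif of interferon-activated factors can be read in them. The interferon-stimulated response element, bound by STAT and IRF9 complexes and by other IRF factors, was searched as GAAA, any 2 bases and GAAA again, on both strands of RefSeq promoter windows of GRCm38.p6 that run from 250 bases before to 50 bases after a start. Each line gives the 150 bases before the start in the direction of transcription, with matches in capitals and overlapping matches merged. Isg15 lies at chr4:156200819-156200968 on the minus strand, Ifit1 at chr19:34640739-34640888, Ifit3 at chr19:34583379-34583528 and Igtp at chr11:58199406-58199555, all on the plus strand.
Isg15: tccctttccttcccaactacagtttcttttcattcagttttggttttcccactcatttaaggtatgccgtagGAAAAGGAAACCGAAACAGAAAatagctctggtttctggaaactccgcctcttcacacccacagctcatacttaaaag
Ifit1: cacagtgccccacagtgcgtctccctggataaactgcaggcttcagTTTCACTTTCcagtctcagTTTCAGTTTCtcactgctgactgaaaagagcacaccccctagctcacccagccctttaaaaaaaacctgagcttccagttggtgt
Ifit3: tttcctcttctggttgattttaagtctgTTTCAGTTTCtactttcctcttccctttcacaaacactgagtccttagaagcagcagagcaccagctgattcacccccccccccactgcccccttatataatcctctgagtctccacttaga
Igtp: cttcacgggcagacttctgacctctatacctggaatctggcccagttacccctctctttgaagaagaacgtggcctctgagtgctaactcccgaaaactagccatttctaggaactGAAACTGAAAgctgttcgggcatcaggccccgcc
Isg15 held 3 overlapping matches, the first of which started 78 bases before the start of transcription. Ifit1 held 2 matches and Ifit3 held 1, in the reverse orientation, and Igtp held 1. The core was present in 14 of the 25 tested interferon response genes with a window (56%), and in 3.75% of 5120 tested genes and 3.44% of all 32851 windows. Among the 10 with a window that were higher at an unadjusted p under 0.05, 6 had it. The STAT motif TTCNNNGAA, which can overlap the core, was present in 9 of 25 (36%) and in 8.54% of tested genes. Usp18, Mx2, Ly6e, Iigp1 and Mx1 had no window in the table. Of 12 class I genes with a window 1 had the core (8.33%). A match is a description of these letters and was not tested as a binding site.

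Usp18 removes the ubiquitin-like protein Isg15 and restrains the type I interferon receptor. It read 65.3, 3.05, 11.4 and 3.40 in OT1 and 66.9, 28.7, 107 and 33.8 in HY_low. OT1 array 1 was as high as the HY_low arrays, and the other 3 OT1 arrays lay below all HY_low arrays. The difference of Usp18 was 2.45 ± 0.46 with an adjusted p of 0.0579, and it was 3.25 with an adjusted p of 2.40e-05 without OT1 array 1. Leaving out HY_low array 1 gave 2.87 and an adjusted p of 0.0391, and scaling the arrays to a common median gave 2.47 and 0.0492. Usp18 passed the threshold under 6 of 24 alternatives.

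Isg15, the conjugated product itself, showed the same layout of arrays. It read 147, 3.14, 11.8 and 6.66 in OT1 and 160.3, 63.1, 49.0 and 14.6 in HY_low, a difference of 1.91 ± 0.50 (adjusted p = 0.205). Isg20, an exonuclease that degrades viral RNA, read 123, 1, 18.5 and 17.9 in OT1 and 177, 13.4, 56.4 and 65.6 in HY_low, a difference of 1.94 ± 0.44 (adjusted p = 0.150). Within each number the HY_low array was higher for both genes, but the groups overlapped. For Isg15, OT1 array 1 alone reached the HY_low range, while for Isg20 HY_low array 2 also lay below OT1 arrays 3 and 4. Ifit1, which binds viral RNA, and Ifit3 of the same family differed by 1.85 ± 0.55 and 1.58 ± 0.64, each higher in 3 of 4 numbers.

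Without OT1 array 1 the adjusted p passed 0.05 for 5 members of the list, Usp18, Isg20 (2.46, adjusted p = 0.0206), Isg15 (2.60, 0.0167), Ifit1 (2.71, 0.00873) and Ifit3 (2.66, 0.0147). Over all probe sets that fit called 21, including the 8 of the full set. With array 1 of every group left out, 3 members passed. Of 24 alternatives, Isg20 passed under 2, Isg15 under 1, Ifit1 under 3 and Ifit3 under 2. OT1 array 1 had the highest mean level of the 32 genes among OT1 arrays, 22.4 against 7.67, 11.7 and 8.56 for the arrays 2 to 4, while HY_low arrays had 25, 15.7, 24.6 and 17.8. The median difference within numbers was accordingly 0.13 in number 1 and 0.69, 0.94 and 1.09 in numbers 2, 3 and 4.

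**Figure D3:**
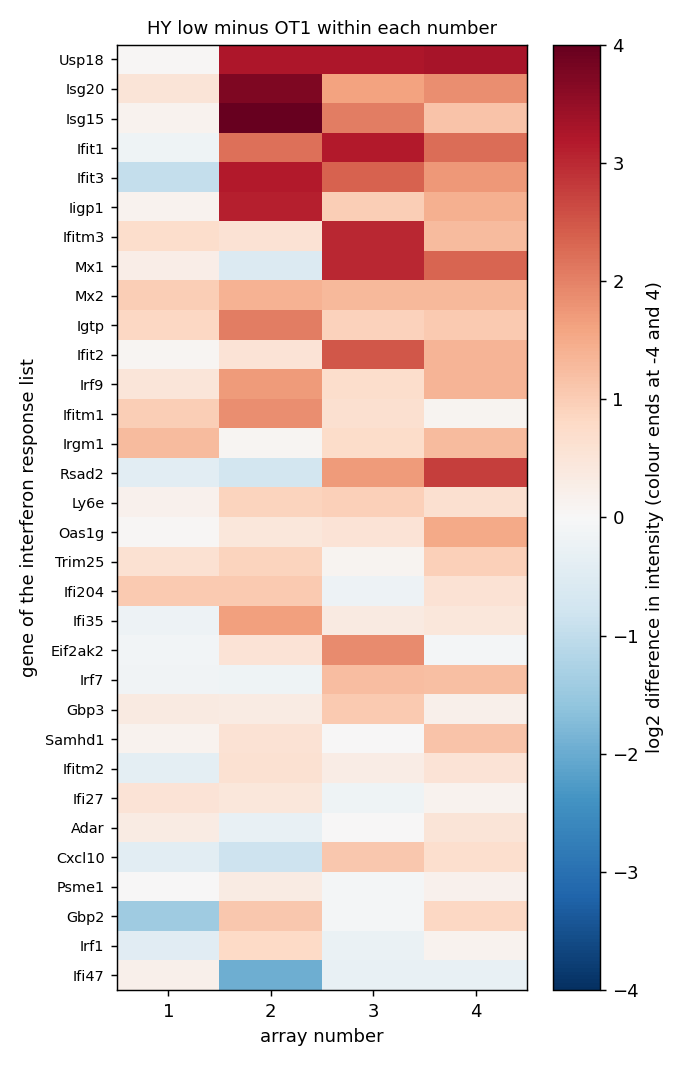
Log2 difference in intensity, HY low minus OT1, of the 32 interferon response genes tested (rows, ordered by the fitted difference) within each array number (columns); red is higher in HY low, blue is lower, and the colour ends at -4 and 4. Numbers 2, 3 and 4 are mostly red, with 26, 26 and 30 of 32 genes higher, while number 1 is pale, with 22 of 32 higher.

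Further members were brighter or steadier. Igtp, a GTPase that guards against vacuolar pathogens, read 19.2, 8.37, 39.9 and 20.5 in OT1 and 34.1, 34.4, 75.7 and 42.7 in HY_low. Its difference was 1.21 ± 0.28 (adjusted p = 0.167), positive in all 4 numbers. Irf9, the DNA-binding subunit of the interferon-activated STAT complex, read 80.2, 28.6, 95.1 and 26.3 in OT1 and 112, 94.1, 155 and 67.9 in HY_low, with a difference of 1.07 ± 0.27 (adjusted p = 0.201). Ly6e, a surface protein of thymocytes, was the brightest member, with a mean of 1051 in OT1 and 1662 in HY_low and a difference of 0.66 ± 0.18 (adjusted p = 0.238). Of the others at an unadjusted p under 0.05, Mx2 (1.25), Mx1 (1.27), Iigp1 (1.41), Ifitm1 (0.90), Ifitm3 (1.39) and Irgm1 (0.84) had means under 11 in both groups, whereas Trim25 (0.64) had 39.8 and 61.9. The only member with a negative difference was Ifi47, at -0.59 ± 0.34. Without the block 6 of the 32 had an unadjusted p under 0.05 and a higher level, with a floor at 8 there were 8, and with OT1 arrays 2 and 3 left out there were 6.

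Class I genes had positive differences in 12 of 14 cases. H2-K1 encodes a classical class I heavy chain, and its probe set 97700_at rose by 3.39 ± 0.45 with an adjusted p of 0.0016. It read 6.16, 1, 4.46 and 1.46 in OT1 and 53.0, 7.44, 35.3 and 34.6 in HY_low, without overlap. All OT1 values were near the lowest value of the table, and with a floor at 8 the difference of H2-K1 was 1.74 with an adjusted p of 0.531. Without the block the adjusted p was 1. The bright family probe set of H2-K1, 93120_f_at, read 1841, 407, 388 and 378 in OT1 and 987, 622, 638 and 582 in HY_low, a difference of 0.26 ± 0.27. Its probe set 97125_f_at differed by 0.27 ± 0.31, so the probe sets of H2-K1 differ in size of effect.

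H2-D1, another classical heavy chain, had 3 probe sets tested with differences from 0.25 to 2.93. Probe set 97541_f_at, named here after its values were seen, read 2.85, 14.2, 17.4 and 24.3 in OT1 and 112, 12.3, 225 and 185 in HY_low. Its difference of 2.93 ± 0.58 had an adjusted p of 0.0823, and HY_low array 2 was the only HY_low array within the OT1 range. With OT1 array 2 left out the difference of 97541_f_at was 3.86 with an adjusted p of 0.000335, and with HY_low array 2 left out it was 3.57 and 0.025. Of 24 alternatives, 5 brought 97541_f_at past the threshold. The brighter 97540_f_at was 577, 339, 307 and 251 in OT1 and 1028, 335, 792 and 578 in HY_low. It differed by 0.85 ± 0.21 (adjusted p = 0.202), or 1.10 with an adjusted p of 0.0498 without HY_low array 2. This probe set passed under 2 of 24 alternatives. The remaining one, 101886_f_at, differed by 0.25 ± 0.36. HY_low array 2 had the lowest HY_low value on H2-K1 97700_at, on both of these H2-D1 probe sets and on the unnamed 103562_f_at.

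Among the 14 class I and peptide loading genes tested, 6 were higher and 0 lower at an unadjusted p under 0.05, against 4.86% and 3.84% of all genes. None passed the adjusted threshold, but H2-K1 was represented here by its brightest probe set 93120_f_at and not by the called 97700_at. The median difference was 0.50. The 6 were H2-D1, H2-M3 (0.92 ± 0.28), the immunoproteasome subunits Psmb8 (0.48 ± 0.19) and Psmb9 (0.56 ± 0.26), and the peptide transporter subunits Tap1 (0.57 ± 0.24) and Tap2 (0.57 ± 0.26). A further Tap1 probe set, 162278_r_at, differed by -0.93. Psmb8 read 842, 354, 481 and 682 in OT1 and 853, 654, 638 and 1033 in HY_low, and B2m, the light chain, had means of 653 and 814. Without the block none of the 14 had an unadjusted p under 0.05. Without OT1 array 2 there were 2, and without OT1 arrays 2 and 3 there was 1.

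Markers of antigen-presenting cells, which carry class II molecules, are given beside these genes. Of 24 class II and myeloid genes tested, 20 were under 8 in both groups, 5 were higher and 1 lower at an unadjusted p under 0.05. Of all genes, 4.86% were higher and 3.84% lower at that level. Apoe differed by 2.15 ± 0.55 and Lyz2, the macrophage lysozyme, by 1.98 ± 0.58, with highest values of 18.5 and 13.2, both in HY_low array 4. Ctss, a protease that trims the class II invariant chain, read 81.2, 288, 192 and 106 in OT1 and 93.3, 583, 264 and 209 in HY_low, a difference of 0.66 ± 0.22. Cd74, the invariant chain, was lower at -1.06. The summed level of the list was 255 to 416 in OT1 and 347 to 734 in HY_low, and the Lyz2 probe set 162309_at was at 1 in all 8 arrays. None of 8 B cell, 9 thymic epithelial or 6 erythroid and neutrophil markers reached an unadjusted p under 0.05, while of 15 fibroblast and endothelial markers 2 were higher and 1 lower, those 3 with means under 8. The part of such cells in the interferon and class I differences was not tested.

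**Figure D4:**
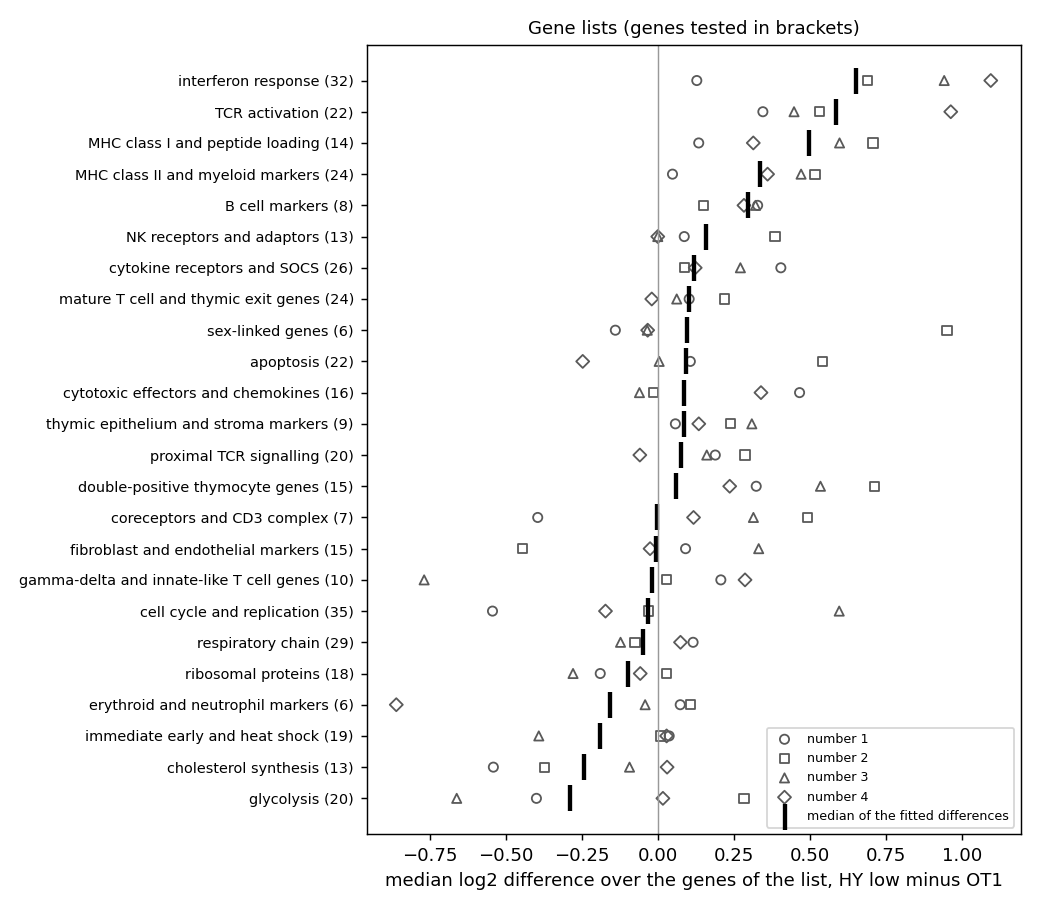
Median log2 difference, HY low minus OT1, over the tested genes of each of 24 lists; open symbols are the medians within array numbers 1 to 4 and black bars the medians of the fitted differences. Interferon response stands at 0.65, receptor activation at 0.59 and glycolysis at -0.29, the order of the first 2 turns when OT1 arrays 2 and 3 are left out (0.49 and 0.70), and in many lists the numbers fall on both sides of 0.

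Genes induced by receptor engagement were mostly dim. Of 22 tested, 12 stayed under 8 in both groups. 4 were higher and 0 lower at an unadjusted p under 0.05, against 4.86% and 3.84% of all genes. None passed the adjusted threshold, and the median was 0.59 but 0.17 with a pseudocount of 16. Pdcd1, the inhibitory receptor PD-1, read 6.17, 2.55, 7.13 and 10.2 in OT1 and 18.9, 10.1, 11.5 and 32.5 in HY_low. Its difference was 1.49 ± 0.31 (adjusted p = 0.112), and it was higher within all 4 numbers. Nr4a2, an orphan nuclear receptor induced by calcium signals, differed by 1.72 ± 0.44 at values of at most 8.2. The NF-kappaB subunit gene Nfkb2 and the inhibitor gene Nfkbia differed by 1.48 ± 0.46 and 0.73 ± 0.29. Egr1 was 36.3 and 54.9 and Cd5, whose surface level follows receptor signal strength, 50.4 and 61.1, and neither reached an unadjusted p under 0.05.

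Of 15 tested genes of the CD4+CD8+ stage, 5 were higher and 0 lower at an unadjusted p under 0.05, while the list's median was 0.06. The shares over all genes were 4.86% higher and 3.84% lower. Without the block 2 of the 15 were higher. Myb, a factor of thymocyte precursors, read 2.44, 6.75, 9.73 and 4.96 in OT1 and 2.91, 61.7, 44.4 and 16.8 in HY_low. Its difference of 1.85 ± 0.40 had an adjusted p of 0.123, and leaving out OT1 array 1 or HY_low array 1 brought Myb to 2.22 (adjusted p = 0.0234) or 2.28 (0.0307). Myb passed the threshold under 4 of 24 alternatives. Cd24a, a surface antigen lost as thymocytes mature, read 6.91, 6.07, 10.99 and 9.40 in OT1 and 15.4, 43.7, 38.0 and 12.1 in HY_low, without overlap, and differed by 1.54 ± 0.39 (adjusted p = 0.201). The chemokine receptor gene Ccr9 differed by 1.62 ± 0.55 and Sox4 by 1.01 ± 0.37. Lef1 differed by 1.24 ± 0.41 on 103629_g_at but by -0.10 on 103628_at. The recombination genes Rag1 and Dntt had means of 6.98 and 7.00, and of 10.1 and 9.13.

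Among cytokine genes, 3 of 26 were higher and 1 lower at an unadjusted p under 0.05, against 4.86% and 3.84% of all genes. Socs3, an inhibitor of IL-6 family signalling, read 26.6, 30.7, 35.8 and 27.4 in OT1 and 124, 94.7, 71.8 and 46.0 in HY_low. The groups did not overlap, and the difference was 1.4 ± 0.28 with an adjusted p of 0.0853. In HY_high the mean of Socs3 was 21.7, a difference from HY_low of -1.86 with an adjusted p of 0.0069, in a contrast that shares the HY_low arrays. The dimmer Socs3 probe set 92232_at differed from OT1 by 1.73 ± 0.63. Cish and Stat5a differed by 0.73 ± 0.32 and 0.53 ± 0.25.

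Il7r is the alpha chain of the IL-7 receptor, which keeps mature T cells alive. It read 34.3, 180.1, 178 and 36.2 in OT1 and 15.0, 30.7, 29.9 and 32.2 in HY_low. The difference of -1.62 ± 0.39 had an adjusted p of 0.193, rested mainly on the high values of OT1 arrays 2 and 3, and was -0.17 within number 4. Without OT1 array 4 it was -2.07 with an adjusted p of 0.0318, and the HY_high mean was 75.2. Il7r passed the threshold under 2 of 24 alternatives. Of 24 genes of mature T cells and thymic exit, Il7r and S100a4 (-1.26 ± 0.34) were lower and Emp3 (0.44 ± 0.18) higher at an unadjusted p under 0.05. Over all genes 3.84% were lower and 4.86% higher. The exit receptor S1pr1 stood at 6.04 and 6.00 and its regulator Klf2 at 31.0 and 33.4.

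Sex-linked genes differed within OT1. Xist, the RNA of the inactive X chromosome, read 9.89, 1, 1.68 and 304 in OT1 and 38.1, 441, 320.5 and 327 in HY_low. Eif2s3y, on the Y chromosome, read 6.12, 95.5, 43.0 and 1.11 in OT1 and 2.74, 2.32, 1 and 1 in HY_low. OT1 arrays 2 and 3 were thus high for Eif2s3y and low for Xist, whereas number 4 had Xist above 300 in both groups. OT1 array 1, at 9.89 for Xist and 6.12 for Eif2s3y, also lay below every HY_low array for Xist and above each for Eif2s3y. The differences were 4.60 ± 1.04 for Xist (adjusted p = 0.150, or 6.09 and 0.0025 without OT1 array 4) and -3.02 ± 0.80 for Eif2s3y (adjusted p = 0.207). Of 24 alternatives, Xist passed under 2 and Eif2s3y under 0. As OT1 arrays 2 and 3 lay at or near the lowest value for Xist, its difference was 3.29 with a floor at 8. Kdm5d, the source of the Smcy peptide, was near the lowest value, at 1 to 2.93 in the 8 arrays, and was not tested.

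Within number 4 alone, where Xist was alike, the difference was 4.34 and 1.6 for the Trav9d-3 probe sets 97944_f_at and 97945_at, -4.68 for 99389_at, 4.56 for H2-K1 97700_at, 0.70 for Trgv1 and 1.25 for Slc9a3r1. In that number 30 of 32 interferon response genes were higher in HY_low. With OT1 arrays 2 and 3 left out but OT1 array 1 kept, 7 probe sets were called, 6 of them among the 8. In that fit 6 of 32 interferon response and 1 of 14 class I genes were higher at an unadjusted p under 0.05. With all arrays there were 15 and 6. Number 4 is a single pair of arrays. The part of the sex-linked levels of OT1 arrays 1, 2 and 3 in any of the differences was not tested.

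**Figure D5:**
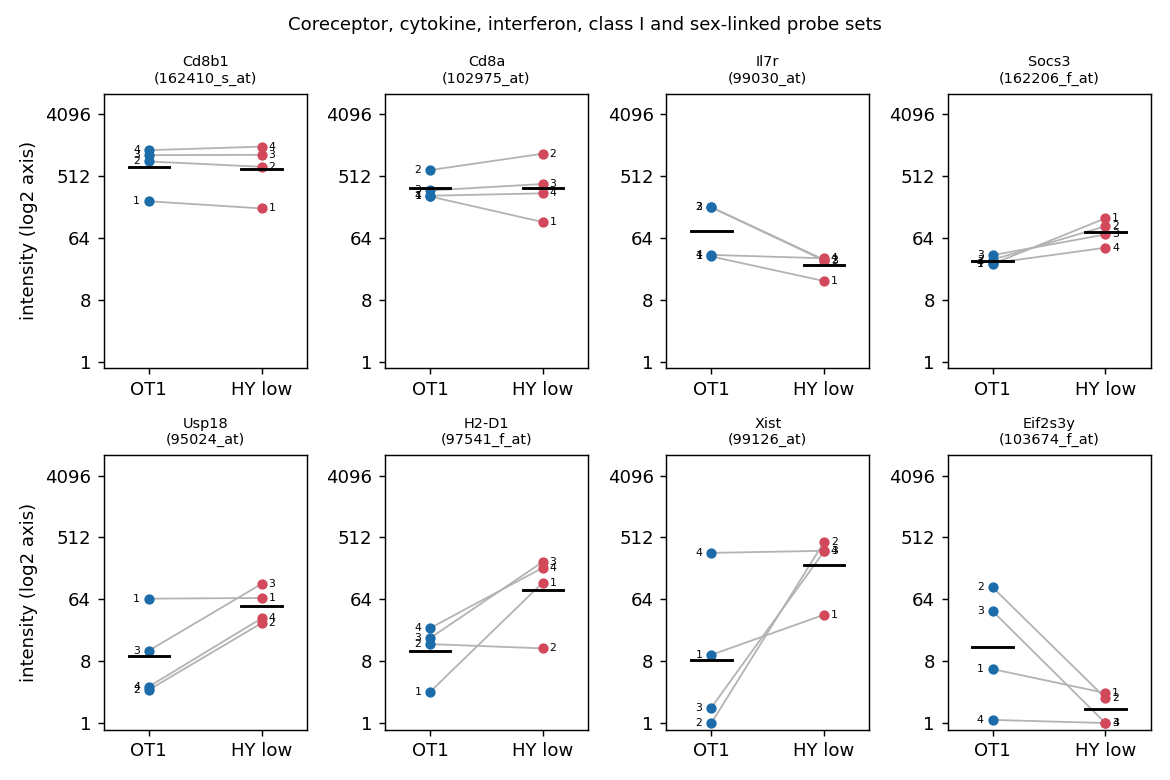
Intensity (log2 axis) of 8 probe sets in the 4 OT1 and 4 HY low arrays; figures beside the points are array numbers, lines join arrays of the same number and black bars are geometric means. Cd8b1 and Cd8a have close means in both groups, Il7r is high in OT1 arrays 2 and 3, Usp18 is high in OT1 array 1, and Xist and Eif2s3y split the OT1 arrays.

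Of 20 glycolysis genes tested, 15 had negative differences, and the median was -0.29, with 0.28 in number 2 and -0.66 in number 3. Pdk1, a pyruvate dehydrogenase kinase, read 36.5, 245, 90.1 and 53.7 in OT1 and 15.6, 48.2, 56.5 and 42.8 in HY_low. Its difference was -1.14 ± 0.30 (adjusted p = 0.207). Tpi1, triosephosphate isomerase, differed by -0.94 ± 0.26, while Hif1a (0.66 ± 0.26) and the dim Ldhb (1.44 ± 0.50) were higher. Of 29 respiratory chain genes, Uqcrq (0.87 ± 0.22) and Ndufs4 (1.15 ± 0.51) were higher and Ndufs1 (-0.74 ± 0.24) lower at an unadjusted p under 0.05. The respiratory chain counts are near the shares over all genes, 4.86% higher and 3.84% lower. Of the 20 glycolysis genes 2 were higher and 2 lower at that level, and without the block 1 was higher and 0 lower. Negative differences were found for 12 of 13 cholesterol synthesis genes, with a median of -0.24, and for 15 of 18 ribosomal protein genes, with a median of -0.10, and none in either list reached an unadjusted p under 0.05. Within numbers 1 to 4 the medians were -0.54, -0.37, -0.09 and 0.03 for cholesterol synthesis. For ribosomal proteins they were -0.19, 0.03, -0.28 and -0.06, and the median over all genes was 0.01.

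The remaining lists held few differences, and none of their members passed the adjusted threshold. An unadjusted p under 0.05 was reached by 4.86% of all genes as higher and 3.84% as lower. Of 35 cell cycle genes, none but the ribonucleotide reductase subunit Rrm2 (-1.04 ± 0.39) had an unadjusted p under 0.05. Among 22 apoptosis genes, Birc3 (1.0 ± 0.37) was higher and Casp2 (-0.95 ± 0.29 on 99049_at, but 0.16 on the dimmer 161263_f_at) lower. The survival gene Bcl2 differed by 0.53 ± 0.28 on 98868_at, by -0.11 on 98869_g_at and by -0.27 on 98870_at. Of 19 immediate early and heat shock genes, Jund (0.60 ± 0.19) was higher, and the chaperone genes Hspa8 (-0.56 ± 0.23) and Dnajb1 (-0.70 ± 0.33) were lower.

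Innate-like genes mark the alternative fates of strongly signalled thymocytes. Of 13 NK receptor and adaptor genes, Crtam (1.34 ± 0.45) was higher at values of 8.82 or less and Klrd1 lower. Klrd1, the CD94 chain, read 43.4, 126, 207 and 88.4 in OT1 and 66.3, 8.75, 51.3 and 114 in HY_low, a difference of -1.22 ± 0.53 with 2 of 4 numbers in each direction. Of 16 cytotoxic and chemokine genes, Xcl1 (1.33 ± 0.37) and Ccl3 (1.17 ± 0.54) were higher and granzyme Gzmb (-0.95 ± 0.38) lower. Both chemokine genes were dim, with means in OT1 and HY_low of 4.09 and 10.3 for Xcl1 and 1.69 and 3.80 for Ccl3. Of 10 gamma-delta and innate-like genes, Eomes (-1.64 ± 0.43) and Id2 (-0.85 ± 0.35) were lower. All of these genes had an unadjusted p under 0.05, where 4.86% of all genes were higher and 3.84% lower. Eomes, a factor of memory-like CD8+ cells, was dim, with 8.18, 8.29, 4.51 and 3.47 in OT1 and 1.91, 1.96, 1 and 2.98 in HY_low.

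Among bright genes outside the lists, the smallest p-values on the higher side belonged to the RNA helicase gene Ddx6 (1.12 ± 0.23 on 93965_r_at and 1.13 on 93964_s_at, but -0.07 on 96731_at), Agfg1 (1.26 ± 0.26) and Zmiz2 (0.91 ± 0.22). On the lower side were the sorting nexin gene Snx9 (-1.31 ± 0.31), Spg21 (-1.32 ± 0.32), the mitochondrial serine transporter gene Sfxn1 (-0.95 ± 0.26), Dap (-0.84 ± 0.24), the nucleolar gene Gnl3 (-1.01 ± 0.29) and Cyb5r4 (-0.84 ± 0.25). Agfg1 read 31.8, 49.0, 81.2 and 65.6 in OT1 and 86.2, 239.6, 130 and 102 in HY_low, without overlap. Snx9 read 42.6, 59.0, 24.8 and 26.8 in OT1 and 22.9, 11, 9.53 and 18.4 in HY_low, also without overlap. None of these 9 genes passed the adjusted threshold, with adjusted p from 0.0853 to 0.319. Without OT1 array 1, Sfxn1 fell by 1.23 with an adjusted p of 0.0473, and it passed under only this 1 of 24 alternatives. Lower levels in all 4 numbers were found for 7.84% of all genes.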

How the data were processed

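The authors deposited a table of linear intensities for 12488 probe sets on 12 arrays. Background correction, summarisation and scaling are not given in the sources used here. After 66 control probe sets were left out, 12422 remained, of which 10833 matched 1 gene, 396 several and 1193 none in the platform's annotation, with symbols updated by gene ID. The intensities were used without rescaling and turned to log2. The test took in probe sets with a mean log2 over 12 arrays past the 30th percentile, an intensity of 1.76.

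limma 3.58.1 (R 4.3.3) was fitted to all 12 arrays with a mean per group and the array number as a block, leaving 6 residual degrees of freedom, with a variance trend and Benjamini-Hochberg adjustment over 8695 probe sets. Tests were two-sided, and the fit was checked on simulated data. Levels are geometric means and differences are HY_low minus OT1. A value after ± beside a difference is the SE of this fit. Its variance rests on all 12 arrays, HY_high included, and is drawn towards that of probe sets of like intensity. It is thus not the spread of the 4 differences within numbers, whose SD was 4.23 for Xist and 0.24 for Cd8b1. Arrays were paired by the number in their titles, and the labels do not say what it stands for. Deviations from group means correlated at 0.341 to 0.563 in the 4 same-numbered pairs of OT1 and HY_low and at -0.298 to 0.163 in the 12 others.

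In the lists, the brightest single-symbol probe set stood for each gene. Named were all called probe sets, the 12 smallest p-values per direction among probe sets at 32 or more with 1 direction in all 4 numbers, up to 4 members per list, receptor segments, coreceptors and sex-linked genes. Further members of the interferon response, class I, receptor activation and CD4+CD8+ lists with an unadjusted p under 0.05 were named after their values were seen, as were genes quoted as levels. The members and lists were chosen with earlier results of these data known. The alternatives tried concern the block, the arrays fitted, filter, floor, pseudocount, scaling, variance trend, array weights and single arrays left out. Probe sets have no positions here, since their build is not given.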

Additional observations from a re-analysis of the deposited data

Results flagged for a closer look

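In 13 of 270 groups examined, each the 4 arrays of a group on 1 named probe set, an array lay far from the other 3 on the log2 scale by Dixon's criterion, which chance meets in about 1 of 20 groups, so the count is near what chance gives. The flags were spread unevenly, with array 1 the one in 10 of the 13, array 4 in 3 and arrays 2 and 3 in 0. In OT1 it was low for Sfxn1 (19.7) and Ddx3x 101542_f_at (3.97), and high for Ccnd3 (865), Ifitm3 (8.95), Lyz2 (1.75) and H2-Ea (1.72). In HY_low array 1 was low for Xist (38.1), Il7r (14.99) and Pcna (14.15) and high for S100a4 (26.7). HY_low array 4 was low for Cd3e (31.9) and Cox5a (2.01) and high for Id2 (54.5).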

How the results depend on the processing

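The count of 8 called probe sets depended on the processing. It was 2 without the replicate block, both with 12 and with 8 arrays, 2 with no filter, 2 with a floor at 8, 5 with a pseudocount of 16, 5 without the variance trend and 28 with array weights. Leaving out single arrays or whole numbers gave 6 to 21, with 21 without OT1 array 1. The other alternatives, which are 8 arrays with the block, a filter at the 50th percentile, quantile normalization and median scaling, gave 6 to 9, and leaving out OT1 arrays 2 and 3, chosen after seeing the data, gave 7. The cause was not tested. Trav9d-3 97944_f_at and 99389_at passed under all 24 alternatives. Dim probe sets at the lowest value of the table limit small differences.

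Reversed signs were found for 13 named probe sets, with the value of the fit with the block in brackets; the cause was not tested. Camp 92322_at (0.48) was -0.072 to 0.99 when arrays or numbers were left out. Cd247 102287_at (-0.10) was 0.063 with a floor at 8 and -0.30 to 0.21 when arrays or numbers were left out. Cd4 103480_at (-0.40) was 0.026 with a floor at 8 and -0.74 to 0.047 when arrays or numbers were left out. Cd8a 102975_at (-0.0031) was 0.016 with a pseudocount of 16, 0.0094 with median scaling, 0.049 with array weights and -0.36 to 0.41 when arrays or numbers were left out. Cd8b1 162410_s_at (-0.10) was 0.55 without OT1 arrays 2 and 3 and -0.48 to 0.40 when arrays or numbers were left out. Ddx3x 101542_f_at (-0.15) was 0.021 without OT1 arrays 2 and 3. Ddx3x 161273_f_at (0.14) was -0.29 without OT1 arrays 2 and 3 and -0.30 to 0.52 when arrays or numbers were left out. Eif2s3x 94252_at (0.34) was -4.6e-05 to 0.55 when arrays or numbers were left out. Hbb-bh1 103533_at (-0.35) was 0.060 without OT1 arrays 2 and 3 and -0.93 to 0.24 when arrays or numbers were left out. Ms4a1 104173_at (0.32) was -0.027 with a floor at 8 and -0.070 to 0.55 when arrays or numbers were left out. Pcna 101065_at (-0.36) was -0.66 to 0.16 when arrays or numbers were left out. Sry 99556_s_at (-0.17) was 0.041 without OT1 arrays 2 and 3 and -0.40 to 0.12 when arrays or numbers were left out. Trav9d-3 93224_at (-0.29) was 0.28 without OT1 arrays 2 and 3.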
